A study of Xenopus tropicalis with 36 samples.

Results

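Uncoupling proteins are carriers of the inner mitochondrial membrane. In mammals UCP1 lets protons leak back into the matrix of brown fat mitochondria, so that the energy of the gradient is given off as heat, while UCP2 and UCP3 are close relatives with other substrates and weaker links to heat production. SLC25A27, also named UCP4, is a more distant member that mammals express mainly in brain. Adiponectin, the product of adipoq, is a secreted hormone with a collagen-like stalk and a C1q-like head that mammalian fat cells release and that acts through the receptors AdipoR1 and AdipoR2 to raise fatty acid oxidation, partly through AMP-activated protein kinase (AMPK). Amphibian tailbud embryos have no brown fat, so these roles are background from mammals and not properties measured here.

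The 5 genes described are ucp1, ucp2, ucp3, slc25a27 and adipoq, each found by its symbol in a single row of a raw count table that named 25774 genes. They were proposed with measured values of these libraries known, and which values these were is not recorded. They are treated as chosen by their changes after Brachyury knockdown and knockout, which, with the dependence of those changes on stage, are given as a description without a test. The control injection, the heterozygotes and the stages of uninjected and wild-type embryos were taken as not used, and the tests given for them rest on that assumption. These comparisons share the uninjected or the wild-type libraries with the knockdown and knockout contrasts. Their p-values are therefore not independent of the choice of genes. All 5 genes passed the filter on low values, which 17987 genes passed (a mean normalized count above 7 over the libraries of uninjected, control-injected, wild-type and heterozygous embryos).

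The study compared the poly(A) RNA of whole Xenopus tropicalis embryos (out-bred Nigerian strain) that lacked the T-box transcription factors t and t2, the redundant Brachyury paralogs, through morpholino oligomers or through mutation. In the knockdown (KD) experiment 1-cell embryos from frogs D, E and F received 18 ng of t/t2 MO, a mix of splice- and translation-blocking morpholinos, 18 ng of standard control morpholino (cMO), or no injection. In the knockout (KO) experiment crosses 1, 2 and 9 between te1.2D/+ t2e3.7D/+ frogs gave t/t2 KO embryos homozygous for both deletions, t/t2 het embryos with 1 mutant copy of each, and wild-type siblings. Embryos of all 6 conditions were collected at stage 26 and at stage 34, in 3 clutches (the offspring of 1 frog or cross), and every library was a pool of siblings. All mutants carried the same pair of linked deletions from a single founder line, and the wild-type siblings came from heterozygous parents while uninjected embryos did not.

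The 36 libraries held 30225504 to 52401214 fragments assigned to genes. The transcript of t2 reached 0.0284 to 0.108 CPM (fragments per 1000000 fragments assigned to genes) in t/t2 KO embryos at stage 26, against 21.7 to 26.3 CPM in wild-type siblings, and 0.467 to 1.59 CPM in t/t2 MO embryos, against 34.5 to 39.5 CPM in uninjected embryos. No t/t2 MO or t/t2 KO library went against its label by this check. It could not tell cMO from uninjected embryos, as cMO embryos had 32.1 to 43.3 CPM of t2 at stage 26. Nor could the level of t2 tell t/t2 het embryos, at 20.5 to 23 CPM, from wild-type siblings. The transcript of t was higher in t/t2 het than in wild-type embryos without overlap. It had 30.3 to 32.5 against 17.2 to 23.4 CPM at stage 26, and 15.7 to 18.8 against 10.3 to 11.5 CPM at stage 34. In cMO and uninjected embryos t overlapped at stage 26 but not at stage 34 (11.3 to 14.2 against 9.36 to 10.2 CPM). CPM were taken over library sizes scaled by the trimmed mean of M-values (TMM). The RNA came from whole embryos, so fewer cells of a type and less RNA per cell cannot be told apart.

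The 5 genes lie on 3 scaffolds of assembly v7.1. The gene ucp1 (Xetro.A02802) spans scaffold 1 from 164218537 to 164224929 on the minus strand. The genes ucp2 (Xetro.B02323, scaffold 2, 141116863 to 141125228) and ucp3 (Xetro.B02325, scaffold 2, 141136615 to 141154091) are neighbours on the minus strand, 11386 bases apart, with only the unnamed model Xetro.B02324 between them, which collected 0 or 1 fragments in every library. The gene adipoq (Xetro.I00636) spans scaffold 9 from 34865765 to 34878175 on the minus strand, and slc25a27 (Xetro.I01994) lies on the plus strand of the same scaffold from 91588484 to 91599474. No other gene model overlaps any of them on either strand. The deposited annotation describes the products of ucp1, ucp2 and ucp3 alike as uncoupling protein 2, and a read pair was counted only if it matched 1 gene, so stretches that the relatives share would be counted for none of them.

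Per kilobase of the longest annotated transcript, ucp2 was the most abundant of the 5, with a median over the 36 libraries of 49.9 CPM per kilobase. The levels of adipoq and slc25a27 were lower, with medians of 4.51 and 4.17 CPM per kilobase. The least abundant were ucp1 and ucp3, with medians of 0.518 and 0.252 CPM per kilobase. The level of ucp1 spanned the widest range, between 0.0563 and 12.7 CPM per kilobase, while that of ucp2 lay between 39.6 and 106.0 CPM per kilobase.

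**Figure D1:**
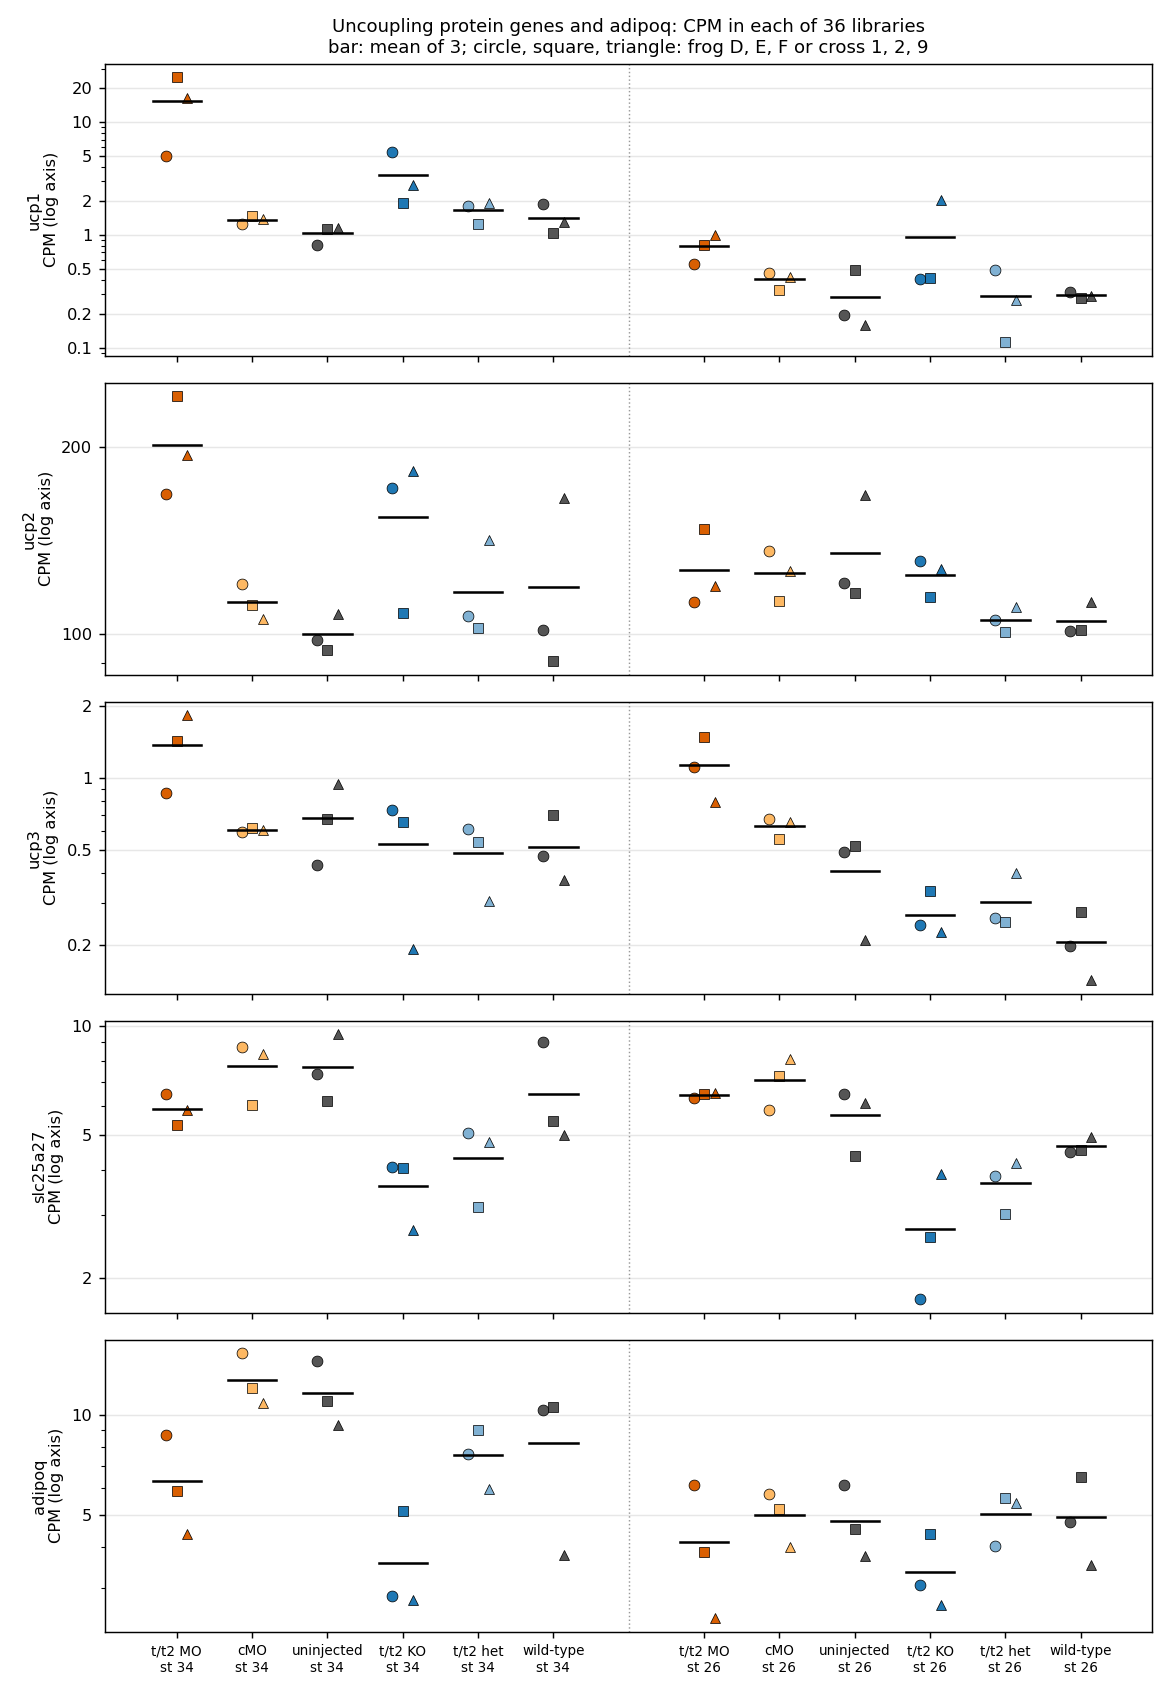
CPM on a log axis of ucp1, ucp2, ucp3, slc25a27 and adipoq in each of the 36 libraries, by condition at stage 34 (left) and stage 26 (right); symbols mark frogs D, E, F or crosses 1, 2, 9, and bars are means of 3 libraries. The 3 ucp1 values of t/t2 MO embryos at stage 34, between 5.00 and 25.2 CPM, stand above those of cMO and uninjected embryos, and slc25a27 is lower in t/t2 KO than in wild-type embryos at both stages without overlap.

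The gene ucp1 was the member with the widest spread between conditions. At stage 34 it had 202, 975 and 571 fragments in t/t2 MO embryos of frogs D, E and F, against 48, 57 and 55 fragments in cMO embryos and 36, 49 and 38 fragments in uninjected embryos. These correspond to 5.00, 25.2 and 16.3 CPM in t/t2 MO embryos, against 1.24, 1.47 and 1.38 CPM in cMO embryos and 0.820, 1.14 and 1.15 CPM in uninjected embryos. The t/t2 MO libraries lay above both other conditions in every frog, and among them frog E was the highest and frog D the lowest.

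At stage 26 ucp1 was close to the limit of counting, with 21, 28 and 33 fragments in t/t2 MO embryos, against 8, 17 and 6 fragments in uninjected embryos. The t/t2 MO libraries were again the higher ones in all 3 frogs and did not overlap with the uninjected ones. Within a frog the ratio of t/t2 MO to uninjected embryos was 6.10 to 22.2 at stage 34 and 1.66 to 6.35 at stage 26. The fitted log2 fold change of t/t2 MO over uninjected embryos across both stages was 3.11 ± 0.46 (SE), or 8.65-fold.

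In the KO experiment ucp1 had 5.47, 1.90 and 2.75 CPM in t/t2 KO embryos of crosses 1, 2 and 9 at stage 34, 1.24 to 1.94 CPM in t/t2 het embryos and 1.89, 1.05 and 1.31 CPM in wild-type siblings. At stage 26 it had 15, 16 and 72 fragments in t/t2 KO embryos, against 11, 11 and 8 fragments in wild-type siblings. The t/t2 KO value was the higher one in 6 of 6 pairs of siblings, but crosses 1 and 2 at stage 26 exceeded wild-type by few fragments. The fitted log2 fold change of t/t2 KO over wild-type embryos was 1.42 ± 0.36 (SE), or 2.68-fold. Without cross 9 it was 0.995 and no longer met the criteria for a call (at least 1.5-fold at an adjusted p up to 0.10).

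The gene ucp3 was higher in t/t2 MO than in uninjected embryos in 6 of 6 pairs. It was higher in t/t2 KO than in wild-type embryos in 4 of 6 pairs. It had 35, 55 and 64 fragments in t/t2 MO embryos at stage 34, against 19, 29 and 31 fragments in uninjected embryos. The stage 26 libraries held 42, 51 and 26 fragments in t/t2 MO embryos, against 20, 18 and 8 fragments in uninjected embryos. Each t/t2 MO library exceeded its uninjected counterpart, by 1.95- to 3.75-fold, although the conditions overlapped at stage 34. The fitted log2 fold change was 1.21 ± 0.26 (SE) for t/t2 MO over uninjected embryos and 0.16 ± 0.32 (SE) for t/t2 KO over wild-type embryos. The t/t2 KO libraries held 7 to 29 fragments of ucp3 and the wild-type ones 4 to 24.

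In the KD experiment ucp2 stood apart at stage 34. There it had 168, 241 and 194 CPM in t/t2 MO embryos of frogs D, E and F, against 120, 111 and 106 CPM in cMO embryos and 97.7, 94.1 and 108 CPM in uninjected embryos. At stage 26 it had 113, 148 and 119 CPM in t/t2 MO embryos, against 121, 117 and 167 CPM in uninjected embryos. The t/t2 MO libraries lay above both other conditions at stage 34 and among them at stage 26. Across both stages the fitted log2 fold change of t/t2 MO over uninjected embryos was 0.46 ± 0.16 (SE), under the fold that a call required. Without frog F it was 0.63 and met the criteria. Without frog E it was 0.28 and passed neither the fold nor the adjusted p of a call.

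In t/t2 KO embryos ucp2 had 172, 108 and 183 CPM at stage 34, against 102, 90.4 and 166 CPM in wild-type siblings. Its stage 26 levels were 131, 115 and 127 CPM in t/t2 KO embryos, against 101, 101 and 113 CPM in wild-type siblings. The t/t2 KO value was higher in 6 of 6 pairs of siblings, by 1.11- to 1.69-fold. The t/t2 KO libraries lay above the wild-type and the t/t2 het ones at stage 26 and overlapped with both at stage 34, where all 3 genotypes of cross 9 were high. The fitted log2 fold change was 0.29 ± 0.12 (SE).

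The gene slc25a27 was lower in t/t2 KO than in wild-type embryos in 6 of 6 pairs. It was lower in t/t2 MO than in uninjected embryos in 4 of 6 pairs. It had 4.07, 4.04 and 2.72 CPM in t/t2 KO embryos at stage 34, 5.04, 3.16 and 4.77 CPM in t/t2 het embryos and 9.03, 5.44 and 4.98 CPM in wild-type siblings. Its levels at stage 26 were 1.75, 2.61 and 3.89 CPM in t/t2 KO embryos, 3.85, 3.01 and 4.18 CPM in t/t2 het embryos and 4.49, 4.54 and 4.91 CPM in wild-type siblings. The t/t2 KO libraries lay below every wild-type library of their stage, and t/t2 het embryos lay below their wild-type siblings in 6 of 6 pairs.

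The fitted log2 fold change of slc25a27 in t/t2 KO over wild-type embryos was -0.82 ± 0.19 (SE), or 0.568-fold. Without cross 1 it was -0.59 and did not meet the criteria. Over t/t2 het embryos the t/t2 KO change was -0.35 ± 0.19 (SE), short of the criteria, with 5 of 6 pairs lower. In t/t2 MO embryos the gene had 5.31 to 6.48 CPM at stage 34, against 6.20 to 9.48 CPM in uninjected embryos. Its stage 26 levels were 6.33 to 6.51 CPM in t/t2 MO embryos, against 4.38 to 6.48 CPM in uninjected embryos. The t/t2 MO and uninjected libraries overlapped at both stages, and the fitted log2 fold change was -0.12 ± 0.14 (SE). That value averages 0.18 ± 0.19 (SE) at stage 26 and -0.41 ± 0.18 (SE) at stage 34, where t/t2 MO embryos were lower in every frog.

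The gene adipoq was lower in 6 of 6 pairs both in t/t2 MO than in uninjected embryos and in t/t2 KO than in wild-type embryos. At stage 34 it had 8.66, 5.90 and 4.38 CPM in t/t2 MO embryos, against 10.9 to 15.3 CPM in cMO embryos and 14.5, 10.96 and 9.33 CPM in uninjected embryos. At stage 26 it had 6.12, 3.85 and 2.43 CPM in t/t2 MO embryos, against 6.13, 4.52 and 3.74 CPM in uninjected embryos. The t/t2 MO libraries lay below both other conditions at stage 34 and overlapped with them at stage 26, and frog D was the highest and frog F the lowest in all 3 conditions of both stages.

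In the KO experiment adipoq had 2.85, 5.13 and 2.78 CPM in t/t2 KO embryos at stage 34, 7.61, 9.01 and 5.97 CPM in t/t2 het embryos and 10.3, 10.5 and 3.79 CPM in wild-type siblings. At stage 26 it had 3.07, 4.36 and 2.67 CPM in t/t2 KO embryos, against 4.75, 6.47 and 3.52 CPM in wild-type siblings. Within a cross the t/t2 KO value was 0.276 to 0.757 times wild-type, and the wild-type library of cross 9 at stage 34 lay within the range of the t/t2 KO libraries. The fitted log2 fold change was -0.89 ± 0.24 (SE) for t/t2 KO over wild-type embryos and -0.56 ± 0.22 (SE) for t/t2 MO over uninjected embryos. The first did not meet the criteria without cross 1 (-0.69). The second was under 1.5-fold in the fit to all frogs without the clutch as a block. It met the criteria with the block (-0.60) or without frog D (-0.72). Without frog E (-0.53) or frog F (-0.45) it passed neither the fold nor the adjusted p.

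By the criteria used throughout (edgeR's quasi-likelihood test at a Benjamini-Hochberg adjusted p up to 0.10, at least 1.5-fold, past the filter), ucp1 and ucp3 were called higher in t/t2 MO than in uninjected embryos, 2 of 5 genes, where 15.2% of all genes past the filter were called. Fitted by stage, ucp1, ucp2 and ucp3 were called higher and adipoq lower at stage 34, 4 of 5 genes beside 19.7% of all genes, and ucp1 and ucp3 higher at stage 26, 2 of 5 beside 11.2%. In t/t2 KO against wild-type embryos ucp1 was called higher and slc25a27 and adipoq lower, 3 of 5 genes, where 3.44% of all genes were called. Fitted by stage, only adipoq was called, as lower at stage 34 (1 of 5 genes beside 2.98% of all genes), and 0 of 5 genes were called at stage 26, where 2.51% of all genes were. Nothing is read from these counts, because the genes were proposed with these contrasts known, and differences between the KD and KO experiments were not tested. Set against cMO, ucp1 and ucp3 were higher and adipoq lower in t/t2 MO embryos, 3 of 5 genes beside 13.6% of all genes, with log2 fold changes of 2.61 ± 0.44, 0.98 ± 0.25 and -0.66 ± 0.22 (SE). Without frog E only ucp1 of these met the criteria, and adipoq (-0.51) was also lost without frog F. Set against t/t2 het embryos, ucp1 was higher and adipoq lower in t/t2 KO embryos, 2 of 5 genes beside 2.67% of all genes, with log2 fold changes of 1.27 ± 0.35 and -0.82 ± 0.24 (SE). Neither met the criteria when cross 1 or cross 9 was left out. The 2 comparisons of each experiment share the t/t2 MO or the t/t2 KO libraries.

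**Figure D2:**
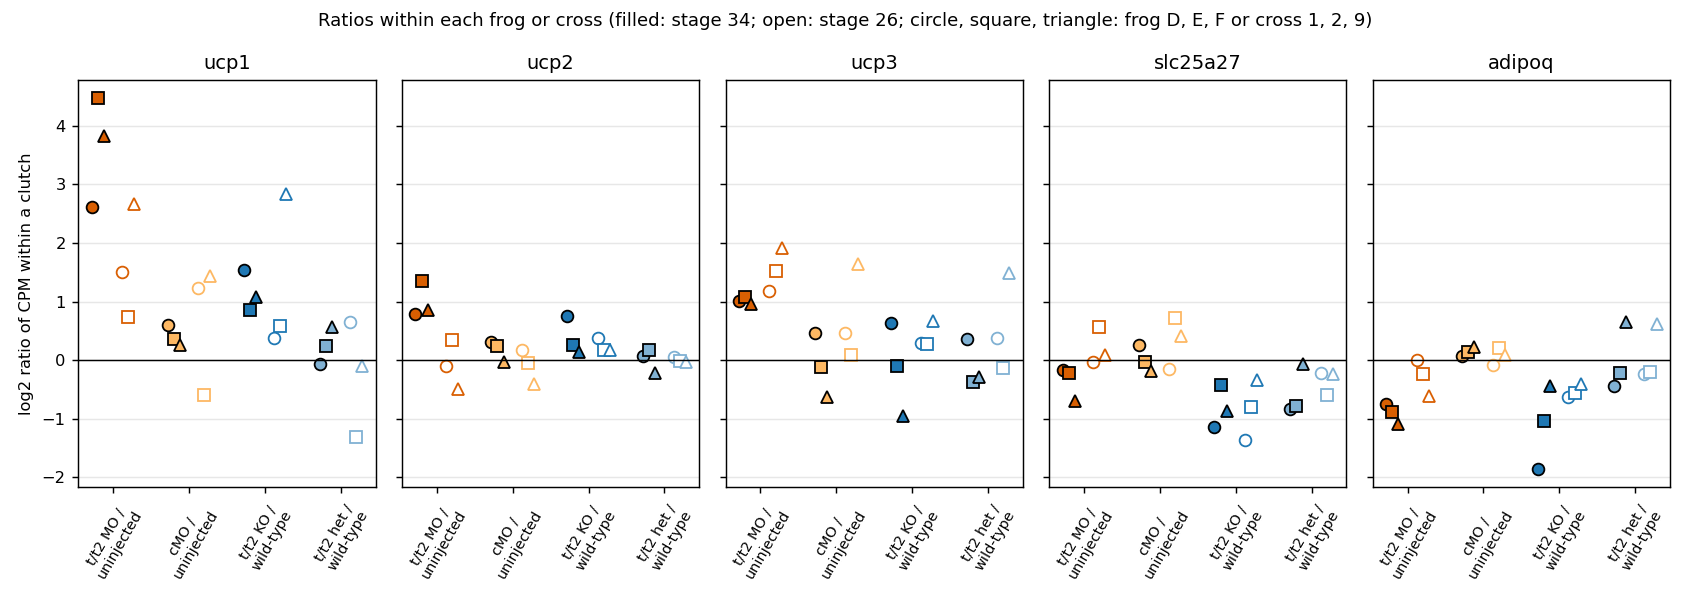
Log2 ratios of CPM within each frog or cross, for t/t2 MO and cMO over uninjected and for t/t2 KO and t/t2 het over wild-type, at stage 34 (filled) and stage 26 (open); each symbol is 1 pair of libraries of the same clutch. All 6 ucp1 ratios are above 0 for t/t2 MO and for t/t2 KO, all 6 slc25a27 ratios are below 0 for t/t2 KO and for t/t2 het, and the cMO ratios of slc25a27 fall on both sides of 0.

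The control injection was taken as a comparison that did not choose the genes, although its uninjected libraries also served the t/t2 MO contrast. In cMO against uninjected embryos 0 of 5 genes met the criteria, where 1.42% of all genes did. None of the 5 had an unadjusted p under 0.05 in edgeR's test, and DESeq2's Wald test also called 0. The gene ucp1 had the largest estimate, a log2 difference of 0.51 ± 0.50 (SE, 95% interval -0.47 to 1.48, adjusted p = 0.728 in edgeR's quasi-likelihood test). At stage 34 its 3 cMO libraries, at 1.24 to 1.47 CPM, lay above the uninjected ones, at 0.820 to 1.15 CPM. The other 4 estimates across both stages lay between 0.02 for ucp2 and 0.22 for ucp3, and their intervals reached no further than 0.74 on the log2 scale. At stage 26 the cMO libraries of ucp3, at 0.555 to 0.674 CPM, lay above the uninjected ones, at 0.211 to 0.522 CPM. The log2 difference there was 0.63 ± 0.38 (SE), short of the criteria, and at stage 34 the conditions overlapped. They also overlapped for ucp1 at stage 26, and for ucp2, slc25a27 and adipoq at both stages. How many of all genes lacked overlap was not counted.

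The heterozygotes were the second such comparison, with wild-type libraries that also served the t/t2 KO contrast. In t/t2 het against wild-type embryos 0 of 5 genes met the criteria, where 0.0222% of all genes did, and DESeq2 called 0. Only slc25a27 had an unadjusted p under 0.05 in edgeR's quasi-likelihood test, with a log2 difference of -0.47 ± 0.19 (SE, 95% interval -0.83 to -0.10) and a Benjamini-Hochberg adjusted p of 1 over all genes. It was lower in t/t2 het than in wild-type embryos in 6 of 6 pairs, at 0.558 to 0.957 times wild-type. These pairs are 3 crosses seen at both stages. Its conditions did not overlap at stage 26 and overlapped at stage 34. The other genes overlapped at both stages, and the share of all genes without overlap was not counted. The lower slc25a27 fails the correction over all genes. For adipoq the t/t2 het embryos had 5.03 ± 0.87 CPM at stage 26 and wild-type siblings 4.91 ± 1.48 CPM (SD, n = 3 each), and the fitted log2 difference was -0.06 ± 0.23 (SE).

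Between stages ucp1 and adipoq rose in uninjected embryos, 2 of 5 genes, where 31.9% of all genes were called. The gene ucp1 averaged 1.04 ± 0.19 CPM at stage 34 and 0.282 ± 0.183 CPM at stage 26 (SD, n = 3 each), a log2 fold change of 1.91 ± 0.52 (SE, adjusted p = 0.00617 in edgeR's quasi-likelihood test). The gene adipoq averaged 11.6 ± 2.7 CPM at stage 34 and 4.80 ± 1.22 CPM at stage 26, a log2 fold change of 1.296 ± 0.287 (SE, adjusted p = 0.00115 by the same edgeR test). Both were higher at stage 34 in 3 of 3 frogs. The transcript of ucp2 went the other way, with 99.9 ± 7.1 CPM at stage 34 and 135 ± 28 CPM at stage 26, and passed the adjusted p (0.0216, edgeR) but not the fold.

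In wild-type siblings ucp1 and ucp3 rose with stage, 2 of 5 genes, where 17.4% of all genes were called. The gene ucp1 averaged 1.42 ± 0.43 CPM at stage 34 and 0.291 ± 0.019 CPM at stage 26 (SD, n = 3 each), a log2 fold change of 2.26 ± 0.57 (SE, edgeR adjusted p = 0.00847). The gene ucp3 averaged 0.515 ± 0.166 CPM at stage 34 and 0.206 ± 0.067 CPM at stage 26, a log2 fold change of 1.26 ± 0.49 (SE, edgeR adjusted p = 0.0902). The call of ucp3 was lost without any 1 of the 3 crosses (adjusted p = 0.11 to 0.312, edgeR) and by DESeq2 (adjusted p = 0.114). For adipoq the log2 fold change in wild-type siblings was 0.73 ± 0.33 (SE, edgeR adjusted p = 0.144), with the stage 34 library of cross 9 at 3.79 CPM beside 10.3 and 10.5 CPM in crosses 1 and 2. With the clutch as a block it was 0.70 and met the criteria (edgeR adjusted p = 0.0205). Without cross 9 it was 0.90 and also met them (edgeR adjusted p = 0.0272). Without cross 1 (0.51) or cross 2 (0.76) it did not.

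The stage dependence of the knockdown was described as the difference between the log2 changes of t/t2 MO over uninjected embryos at stage 34 and at stage 26. It holds the same t/t2 MO values that were known when the genes were proposed, so it carries no test here. For ucp2 the log2 change of t/t2 MO over uninjected embryos was 0.98 ± 0.14 (SE) at stage 34 and -0.10 ± 0.14 (SE) at stage 26, and the difference was 1.08 ± 0.20 (SE). Leaving out any 1 frog moved the difference between 0.93 and 1.19.

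For ucp1 the log2 change was 3.88 ± 0.42 (SE) at stage 34 and 1.501 ± 0.542 (SE) at stage 26, and the difference was 2.38 ± 0.71 (SE). Without frog E, which had the 975 fragments, the difference was 1.32, and without frog F it was 2.90. The differences of adipoq and slc25a27 were -0.71 ± 0.41 (SE) and -0.59 ± 0.26 (SE). Past the criteria stood 2 of the 5 genes, ucp1 and ucp2, where 5.59% of all genes did, and nothing is read from that count.

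The same difference for the knockout stood past the criteria for 0 of 5 genes, where 0.0278% of all genes did. Its 95% intervals were wide, -1.90 to 0.99 for ucp1 and -0.38 to 0.62 for ucp2 on the log2 scale.

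**Figure D3:**
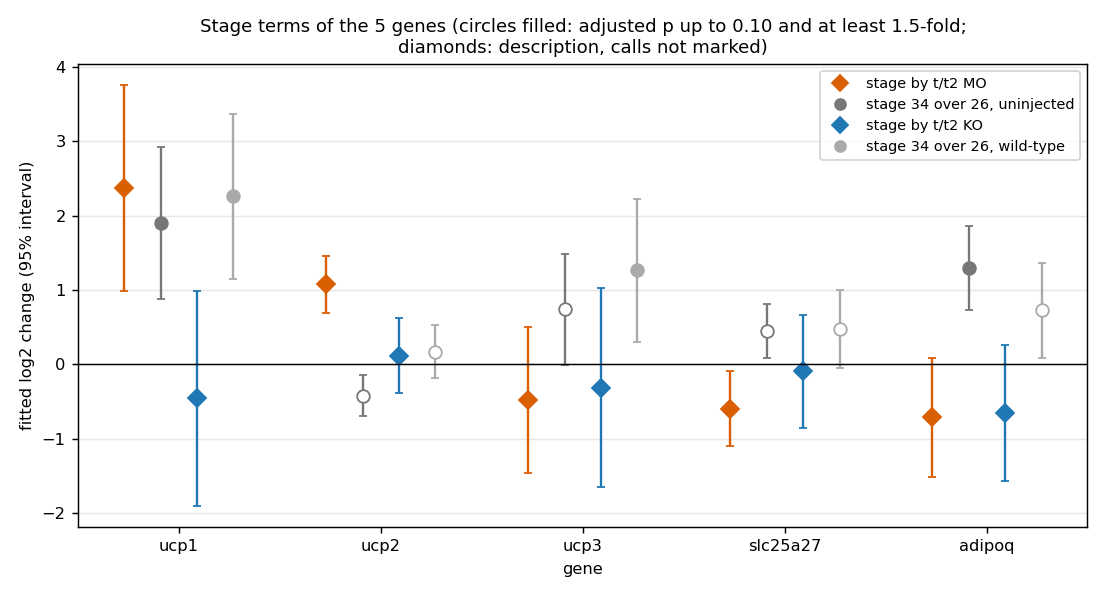
Fitted log2 changes with 95% intervals for each gene: the stage difference of the t/t2 MO change, stage 34 over stage 26 in uninjected embryos, the stage difference of the t/t2 KO change and stage 34 over stage 26 in wild-type siblings; filled circles met the criteria for a call, and diamonds, the 2 stage differences, carry no mark for a call. For ucp2 the t/t2 MO term is 1.08 and the stage change in uninjected embryos -0.42.

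In order of mean CPM over the 12 groups, ucp1 was highest in t/t2 MO embryos at stage 34 (15.5 CPM), then in t/t2 KO (3.37 CPM) and t/t2 het (1.66 CPM) embryos at stage 34, and lowest in uninjected embryos at stage 26 (0.282 CPM). Of the 11 neighbouring pairs in that order 8 overlapped in their ranges. For ucp2, ucp3, slc25a27 and adipoq all 11 neighbouring pairs overlapped. The order of slc25a27 ended with t/t2 KO embryos at stage 34 (3.61 CPM) and stage 26 (2.75 CPM), and so did that of adipoq (3.59 and 3.37 CPM). The lowest place of ucp2 was held by uninjected embryos at stage 34 (99.9 CPM), and that of ucp3 by wild-type siblings at stage 26 (0.206 CPM).

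Across the 36 libraries, as deviations of log2 CPM from the mean of the 9 libraries of the same experiment and stage, ucp1 and ucp2 varied together (Pearson r = 0.684), while adipoq varied against ucp2 (r = -0.768) and ucp1 (r = -0.677). The other pairs lay between -0.396 and 0.517. The libraries share clutches and conditions, so these values are a description. Among about 12010 named genes with a mean count of at least 50, the profiles most like that of ucp1 were those of mmp3, a matrix metalloproteinase (r = 0.865), sik1, a serine/threonine kinase (0.848), and dlx5, a homeobox factor (0.847). Those most like ucp2 were sall4, a zinc finger factor (0.915), cass4 (0.914) and nt5dc2 (0.873). Those most like ucp3 were rexo1, ing3 and ccnt1, with lower r of 0.724 to 0.761.

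The genes most like adipoq were mtrf1l (r = 0.88), snrpb2 (0.875) and nid1 (0.862), the last of which encodes the basement membrane protein nidogen. All 3 lie on scaffold 5, the scaffold that also holds t (72053579 to 72062232) and t2 (72091808 to 72101743), whereas adipoq lies on scaffold 9. The share of all compared genes on scaffold 5 was not counted. The r values pool both experiments, and a link to position was not tested. The gene most like slc25a27 was trim69.2 (r = 0.702), which lies 182837 bases from it on scaffold 9, followed by bclaf1 (0.685) and ube2f (0.679).

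Of 9 listed mitochondrial carriers from the family that holds the uncoupling proteins, 6 were in the table and 5 passed the filter. Of these 1 was higher in t/t2 MO than in uninjected embryos, beside 15.2% of all genes called. In t/t2 KO against wild-type embryos 1 was lower, beside 3.44%. The dicarboxylate carrier slc25a10 had a log2 fold change of 0.78 ± 0.12 (SE) in t/t2 MO embryos, and the adenine nucleotide translocator slc25a4 one of -0.59 ± 0.15 (SE) in t/t2 KO embryos. The median of the list was -0.063 in t/t2 MO embryos, beside -0.033 over all genes past the filter, and -0.11 in t/t2 KO embryos, beside 0.0043.

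Among 24 genes that control heat production and fatty acid oxidation, 2 were higher and 5 lower in t/t2 MO than in uninjected embryos, beside 15.2% of all genes called, and 1 was lower in t/t2 KO than in wild-type embryos, beside 3.44%. The medians were -0.16 in t/t2 MO and -0.17 in t/t2 KO embryos. The pyruvate dehydrogenase kinase pdk4 was higher in t/t2 MO embryos (log2 fold change 1.38 ± 0.14 SE), while the muscle carnitine palmitoyltransferase cpt1b was lower in both t/t2 MO (-1.32 ± 0.19 SE) and t/t2 KO (-0.62 ± 0.17 SE) embryos. The beta-adrenergic receptor gene adrb1 was lower in t/t2 MO embryos (-1.22 ± 0.36 SE). The coactivator ppargc1a, which in mammals drives UCP1, had -0.35 ± 0.08 in t/t2 MO embryos and -0.16 ± 0.10 (SE) in t/t2 KO embryos, under the fold required in both, and prdm16, the brown fat determinant of mammals, had 0.19 ± 0.11 in t/t2 MO and 0.16 ± 0.11 (SE) in t/t2 KO embryos.

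Neither adiponectin receptor was called. The log2 fold change of adipor1 was -0.04 ± 0.06 (SE) in t/t2 MO and 0.18 ± 0.08 (SE) in t/t2 KO embryos, and that of adipor2 was -0.03 ± 0.10 (SE) in t/t2 MO and 0.03 ± 0.13 (SE) in t/t2 KO embryos. Of the 13 genes for receptors and signalling, 4 were lower in t/t2 MO embryos (median of the list -0.2, beside 15.2% of all genes called) and 3 in t/t2 KO embryos (0.015, beside 3.44%). The AMPK subunit genes prkag3 and prkaa2 were lower in both. The log2 fold change of prkag3 was -1.29 ± 0.14 (SE) in t/t2 MO and -1.04 ± 0.10 (SE) in t/t2 KO embryos, and that of prkaa2 was -0.79 ± 0.10 (SE) in t/t2 MO and -0.97 ± 0.09 (SE) in t/t2 KO embryos. Another AMPK subunit gene, prkab2, was lower in t/t2 KO embryos (-0.77 ± 0.12 SE).

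Of 9 relatives of adiponectin with a C1q-like domain that passed the filter, 3 were lower in t/t2 MO embryos (median of the list -0.43, beside 15.2% of all genes called) and 1 in t/t2 KO embryos (0.084, beside 3.44%). The secreted factor gene c1qtnf1 was lower in both, with log2 fold changes of -2.07 ± 0.41 (SE) in t/t2 MO and -1.92 ± 0.36 (SE) in t/t2 KO embryos. The cerebellin genes cbln1 (-1.60 ± 0.21 SE) and cbln4 (-1.55 ± 0.38 SE) were lower in t/t2 MO embryos. Counts were low, with at most 50 fragments of c1qtnf1, 89 of cbln1 and 88 of cbln4 in any library. In cMO over uninjected embryos the medians of these 4 lists lay between -0.18 and 0.022.

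Whether fat cells were present was checked against their markers. Of 8 adipocyte markers 6 were in the table and 5 passed the filter, with mean levels over all libraries of 0.22 CPM for plin1, which coats lipid droplets, and 0.0745 CPM for lep, the leptin gene, which did not pass it. The summed level came from cfd (83.9 CPM), cidec (73.4 CPM), fabp4 (33.4 CPM) and lpl (21.6 CPM). The sum was 188 to 196 CPM in t/t2 MO embryos and 194 to 214 CPM in uninjected embryos at stage 34, and only lpl met the criteria in t/t2 MO embryos, at -0.68 ± 0.16 (log2, SE).

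Markers of other cell types moved with the groups, and their counts stand beside the same 15.2% and 3.44% of all genes. Of 9 skeletal muscle genes 8 were lower in t/t2 MO and 8 in t/t2 KO embryos, among them the transcription factor gene myod1 (log2 fold changes of -1.58 ± 0.14 in t/t2 MO and -1.57 ± 0.31 in t/t2 KO embryos, SE). Their summed level at stage 34 was 4840 to 6270 CPM in t/t2 MO embryos and 13600 to 16400 CPM in uninjected embryos, and 5670 to 6680 CPM in t/t2 KO embryos and 13200 to 14600 CPM in wild-type siblings. The lower adipoq, cpt1b, prkag3 and prkaa2 of both contrasts, and the lower slc25a27 of t/t2 KO embryos, stood beside this lower muscle sum. At stage 26 the sum was 5930 to 8750 CPM in t/t2 MO embryos and 12600 to 15600 CPM in uninjected embryos. The log2 changes of t/t2 MO over uninjected embryos there were 0.18 ± 0.19 for slc25a27 and -0.20 ± 0.29 for adipoq (SE). A part of the muscle sum in the levels of these genes was not tested. Of 7 myeloid genes 3 were higher in t/t2 MO and 1 in t/t2 KO embryos. Their summed level at stage 34 was 505 to 596 CPM in t/t2 MO embryos and 260 to 319 CPM in uninjected embryos. At stage 26 these overlapped, at 489 to 698 CPM in t/t2 MO embryos and 438 to 608 CPM in uninjected embryos. The sums of t/t2 KO and wild-type embryos overlapped at both stages, at 266 to 457 CPM and 212 to 285 CPM at stage 34. A part of the myeloid sum in the higher ucp1 and ucp2 was not tested.

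Of 8 neuron genes 0 met the criteria in t/t2 MO and 0 in t/t2 KO embryos. Their median log2 fold change was -0.031 in t/t2 MO and 0.24 in t/t2 KO embryos, where slc25a27, the member tied to brain in mammals, was lower. The summed neuron level at stage 34 was 860 to 915 CPM in t/t2 KO embryos and 593 to 712 CPM in wild-type siblings. At stage 26 these overlapped, at 592 to 660 CPM in t/t2 KO embryos and 528 to 595 CPM in wild-type siblings. A part of this sum in the slc25a27 level was not tested. Of 8 erythroid genes 1 was lower in t/t2 MO and 2 were higher in t/t2 KO embryos.

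**Figure D4:**
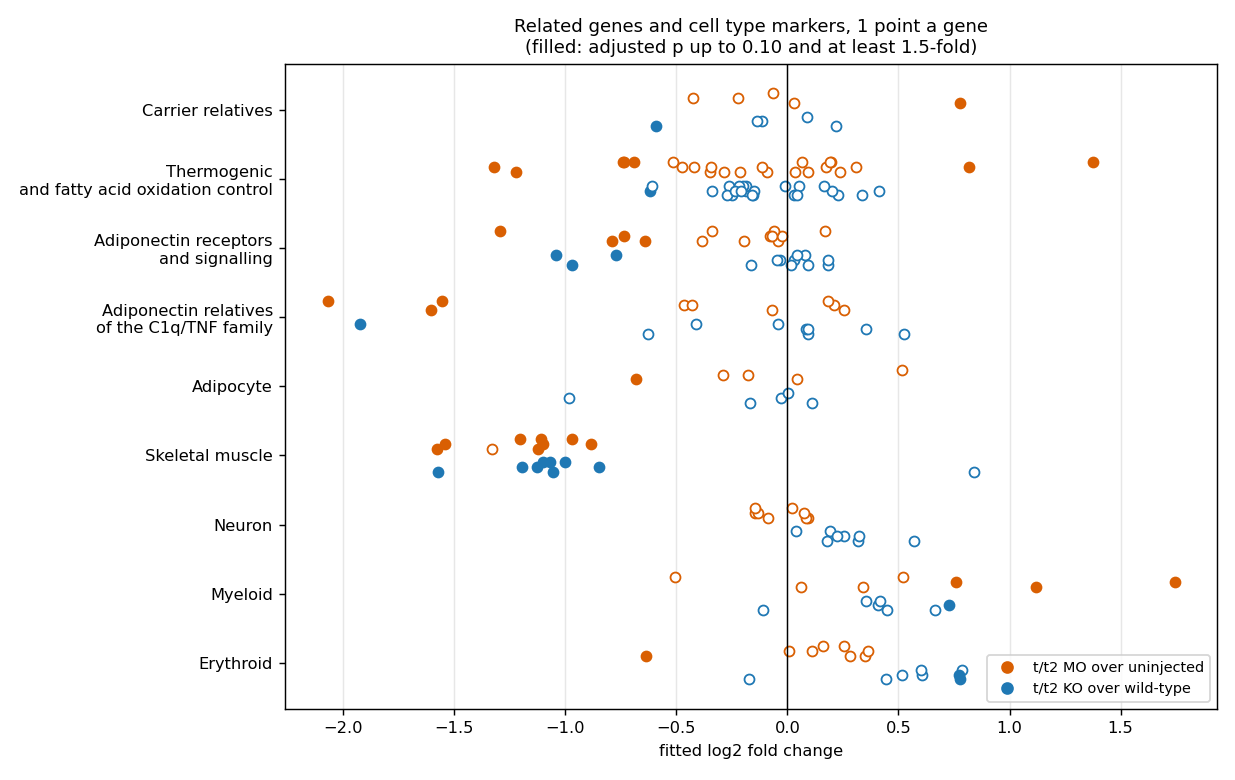
Fitted log2 fold changes of the genes past the filter in 4 lists related to the uncoupling proteins and adiponectin and in 5 lists of cell type markers, for t/t2 MO over uninjected (upper points) and t/t2 KO over wild-type (lower points); filled points met the criteria. In the skeletal muscle list 8 of 9 genes are filled to the left of 0 in both contrasts.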

How the data were processed

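The authors sequenced poly(A) TruSeq libraries (no strand kept) as paired 76-base reads, aligned them with Bowtie2 2.1.0 to gene models v7.2 and deposited raw counts of fragments per gene. Rows for ribosomal, mitochondrial and unaligned reads name no gene and were left out. Ribosomal reads made up 0.0705 to 0.462%, mitochondrial reads 0.00592 to 0.0582% and unaligned reads 27.27 to 34.01% of a library. Gene positions were read from the deposited v7.1 gene models. The 18 libraries of each experiment were fitted with edgeR 4.0.16 (R 4.3.3; TMM, quasi-likelihood test, Benjamini-Hochberg adjustment), with stage and condition as terms, or a mean per group for stage terms. P-values were adjusted over all 25209 (KD) or 24952 (KO) genes with a count. DESeq2 1.42.0 was an alternative. The members, lists and tests were chosen with earlier results of these data known. Named genes were the 5 members, up to 3 called genes per list with the largest change, the 3 most alike profiles per member, and a few list genes named for their role whatever their values (ppargc1a, prdm16, adipor1, adipor2, plin1, lep, fabp4, cfd, cidec). Clutch numbers pair libraries of the same parents: deviations from group means correlated at 0.301 (KD) and 0.293 (KO) on average within a clutch and at -0.15 and -0.146 between clutches. Each group was centred on its own mean, so the values between clutches follow from those within a clutch and add nothing to them. Libraries are pools of siblings from separate clutches. The fits held no term for clutch unless a block is named, so both stages and all conditions of a clutch counted as separate libraries. The p-values thus measure the spread between libraries and leave out the pairing by clutch. Scripts were tested on simulated data for t/t2 MO over uninjected and t/t2 KO over wild-type embryos only. The changes were planted in genes with higher mean counts than ucp1 and ucp3, and shared clutches were not simulated.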

Additional observations from a re-analysis of the deposited data

Results flagged for a closer look

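The difference between stages in the log2 change of t/t2 MO over uninjected embryos stood past the criteria of the fit across all genes for ucp1 and ucp2. The genes were proposed with the t/t2 MO changes known, so both values are a description and no test of the genes. For ucp1 the difference was 2.38 on the log2 scale, with 3.88 ± 0.42 at stage 34 and 1.501 ± 0.542 at stage 26 (SE), and it fell short of the criteria without frog E (1.32) or without frog F (2.90). For ucp2 it was 1.08, with 0.98 ± 0.14 at stage 34 and -0.10 ± 0.14 at stage 26 (SE).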

How the results depend on the processing

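Of 500 values of the 5 genes recomputed under the alternatives, 455 kept their direction and their side of the criteria, 26 lost a call, 8 gained one and 11 changed sign; none of the 11 was called on either side. With the clutch as a block the number of the 5 genes called for the stage difference of t/t2 MO was 4 in place of 2 (adipoq at -0.69 and slc25a27 at -0.60 were added), and besides these the block changed the calls named above and no other. At an FDR of at most 1% the counts were 1 for that difference, 1 for stage in wild-type embryos (2 in the report), 0 for t/t2 KO over t/t2 het (2) and 1 for t/t2 KO over wild-type (3). For t/t2 MO over cMO the count at 1% was 2 (3). With only the compared conditions fitted they were 1 for the stage difference of t/t2 MO, 1 for stage in wild-type embryos and 1 for t/t2 KO over t/t2 het, and DESeq2 called 1 for stage in wild-type embryos. Leaving out 1 clutch gave 1 to 2 for stage in wild-type embryos, 1 to 2 for the stage difference of t/t2 MO, 0 to 2 for t/t2 KO over t/t2 het, 1 to 3 for t/t2 KO over wild-type and 1 to 3 for t/t2 MO over cMO. The 2 genes called for stage in wild-type embryos without cross 9 were ucp1 and adipoq. For t/t2 MO over uninjected it gave 3 in place of 2 without frog D (adipoq added, -0.72) or without frog F (ucp2 added, 0.63). For stage in uninjected embryos it gave 3 in place of 2 without frog D (ucp3 added, 1.14). Without 1 clutch the uncalled values that changed sign ranged over -0.285 to 0.091 (adipoq, t/t2 het over wild-type), -0.334 to 0.196 and -1.143 to 0.822 (slc25a27 and ucp1, stage difference of t/t2 KO), -0.201 to 0.02 (slc25a27, t/t2 MO over uninjected), -0.076 to 0.154 (ucp2, cMO over uninjected), -0.071 to 0.314 (ucp2, stage in wild-type embryos), -0.049 to 0.067 (ucp2, t/t2 het over wild-type), -0.224 to 0.219 (ucp3, t/t2 KO over t/t2 het) and -0.037 to 0.233 (ucp3, t/t2 KO over wild-type). Over all genes, calls moved by over 1.5 times for cMO over uninjected (256, and 132 at an FDR of at most 1%), stage in wild-type embryos (3138, and 1600 at 1%), the stage difference of t/t2 MO (1006, with 1534 under the block, 177 at 1%, 319 without frog F and 235 without frog E), that of t/t2 KO (5, with 1 at 1% to 23 under the block) and t/t2 het over wild-type (4, with 1 at 1% to 10 by DESeq2). The causes were not tested. The low counts of ucp1 and ucp3, at 4 to 72 and 4 to 51 fragments in the stage 26 libraries, limit what could be detected there.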
